A study of Mus musculus with 84 samples.

Results

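The response of mouse liver to the 2 lowest dietary doses of fenthion (FT), an organophosphate pesticide (OPP), was compared with the liver of control mice. The members were all mice labelled FT2.5ppm (7 mice) or FT5ppm (7 mice), pooled as 14 low-dose mice, and all 7 mice labelled Con0ppm, which are 21 of the 84 mice of the series. All were male B6C3F1 mice, an F1 hybrid strain, labelled 8-weeks old, that ate AIN-93G diet for 7 days, and the fenthion was mixed into that diet at 2.5 or 5 ppm while the control diet held none. The other dosed groups, used only as a comparison, were 7 mice each on fenthion at 10 or 20 ppm, methidathion (MT) at 10, 25, 50 or 100 ppm, or parathion (PT) at 20, 40 or 80 ppm. The tissue was archived frozen liver, kept as portions of the left lateral, caudate and right medial lobes, and a single strain, sex and duration of feeding were measured. Mice were housed 4 per cage, treatment was assigned at random by cage, and the labels do not name the cage. The p-values therefore measure the spread between mice and treat cage mates as independent.

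Fenthion carries a phosphorothioate (P=S) group. Cytochrome P450 enzymes of the liver convert such compounds to oxons, which bind the active serine of acetylcholinesterase and of other serine esterases, and carboxylesterases and paraoxonase take up or hydrolyse the oxons. The liver is therefore the organ where an OPP is both activated and cleared, and it also makes fatty acids from dietary sugar, most plasma proteins and most xenobiotic-metabolising enzymes. RNA was measured by TempO-Seq, in which pairs of probes that lie side by side on a transcript are ligated and sequenced, so a value is a count of probe reads per gene. Levels are given below as CPM, a gene's count divided by the mouse's total count and scaled to a common library size, and were not compared between genes, because probes differ in their yield.

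Total counts of the 21 mice lay between 9507677 and 13699666, and 13632 to 14894 genes had a count. Each group held 2 mice of block 1, 3 of block 3 and 2 of block 4. The RNA was isolated by 1 of 2 laboratories, labelled EA and EPA: all 14 low-dose mice were EA mice, and 2 of the 7 control mice (replicate 3 in block 3 and replicate 6 in block 4) were EPA mice. Both labels were covariates in the main fit, and the isolator term passed for 4010 genes, 38.5% of the 10415 tested. Replicate 7 of FT2.5ppm had the lowest correlation with the median of its group over genes (0.960), followed by replicate 1 of the controls (0.971), against at least 0.986 in the others. Hepatocyte markers (9 of 11 in the table, none at 0 in a group) summed to 41683 to 64013 CPM in controls, 42085 to 53574 at 2.5 ppm and 34467 to 54861 at 5 ppm. Pancreas markers summed to as much as 24.1 CPM in a control mouse and at most 1.61 CPM in a low-dose mouse. Neutrophil markers had medians of 7.52 CPM in controls, 3.16 at 2.5 ppm and 3.93 at 5 ppm, with overlapping ranges, and the part of these markers in the results was not tested.

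The first question was whether fenthion at 2.5 and 5 ppm shifted liver gene expression from control. With both doses pooled, 0 of 10415 genes passed edgeR's quasi-likelihood test at a Benjamini-Hochberg adjusted p under 0.05 (0.0% called). The lowest adjusted p was 0.214 by that test, and 854 genes (8.2%) had an unadjusted p under 0.05, of which 441 (4.23%) were higher and 413 (3.97%) lower at low dose. DESeq2 called 3 genes, Nucb2 and Cxcl14 lower and Rgs16 higher, and limma on log2(CPM + 1) called 0. The median difference of all genes was 0.00 on the log2 scale, the median absolute difference 0.10 and the median standard error (SE) 0.13, and 40 genes differed by 2-fold or more. For no gene were all 14 low-dose mice above, or all below, the 7 controls (0.0%). The differences below are therefore the genes that stood nearest to the threshold, and none passed it unless that is stated. Counts of low-dose mice above or below every control follow for genes chosen by their p in these same mice. This choice favours high counts, and the share of all genes that reach them was not counted.

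Among the 10 genes of lowest p on the higher side, 3 encode proteins that handle or conjugate small molecules or gate carbohydrate use. Slc47a1, a transporter that exports drugs and toxins (ENSMUSG00000010122, mm39 chromosome 11, 61234226 to 61269171, minus strand), lay between 16 and 25.4 CPM in controls (median 20.4), between 20.4 and 38 at 2.5 ppm (median 23.6) and between 23.6 and 31.8 at 5 ppm (median 26.3). Its pooled log2 difference was 0.46 ± 0.11 (SE, 14 against 7 mice) with an adjusted p of 0.214 by edgeR's quasi-likelihood test, and 8 of the 14 low-dose mice were above every control. Sult1a1, a phenol sulfotransferase (chromosome 7, 126271299 to 126275615), had 428 to 564 CPM in controls (median 491), 611 to 858 at 2.5 ppm (median 765) and 560 to 781 at 5 ppm (median 706). Here 13 of 14 low-dose mice were above every control, which the choice of the gene by its p favours, and the log2 difference was 0.51 ± 0.15 (adjusted p = 0.278, edgeR). In the fit of the 21 mice alone Sult1a1 passed, at a log2 difference of 0.50 and an adjusted p of 0.0464 by edgeR. In a linear model with the terms of that fit, the EPA controls carried weights of 0.006 and -0.006. Each EA control carried -0.18 to -0.22, so the fit of the 21 mice alone rests almost wholly on the EA controls. Pdk1, a kinase that switches off pyruvate dehydrogenase (chromosome 2, 71703488 to 71734202), had 0.89 to 1.96 CPM in controls, 1.91 to 5.50 at 2.5 ppm and 1.88 to 4.10 at 5 ppm, so 12 of 14 low-dose mice exceeded the highest control. The log2 difference of Pdk1 was 0.91 ± 0.25 (adjusted p = 0.278, edgeR).

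The widest difference on this side was that of Rgs16, a regulator of G protein signalling (chromosome 1, 153616091 to 153621228). Its level ran from 1.22 to 53.6 CPM in controls (median 4.76), 15.4 to 215 at 2.5 ppm (median 49.4) and 5.50 to 210.5 at 5 ppm (median 72.5), a log2 difference of 2.45 ± 0.65 whose groups overlapped widely. The remaining 6 genes, each with log2 differences of 0.16 to 0.45, were Cyb5r3 (NADH-cytochrome b5 reductase), Nipsnap1 (a mitochondrial protein), Eif3h (a translation initiation factor subunit), Art3, Heca and the pseudogene Got2-ps1, whose reads can be shared with Got2. Cyb5r3 was the 1 gene that passed at a single dose, as described below. Its estimated counts were not whole in any mouse, so reads were split with another feature.

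**Figure D1:**
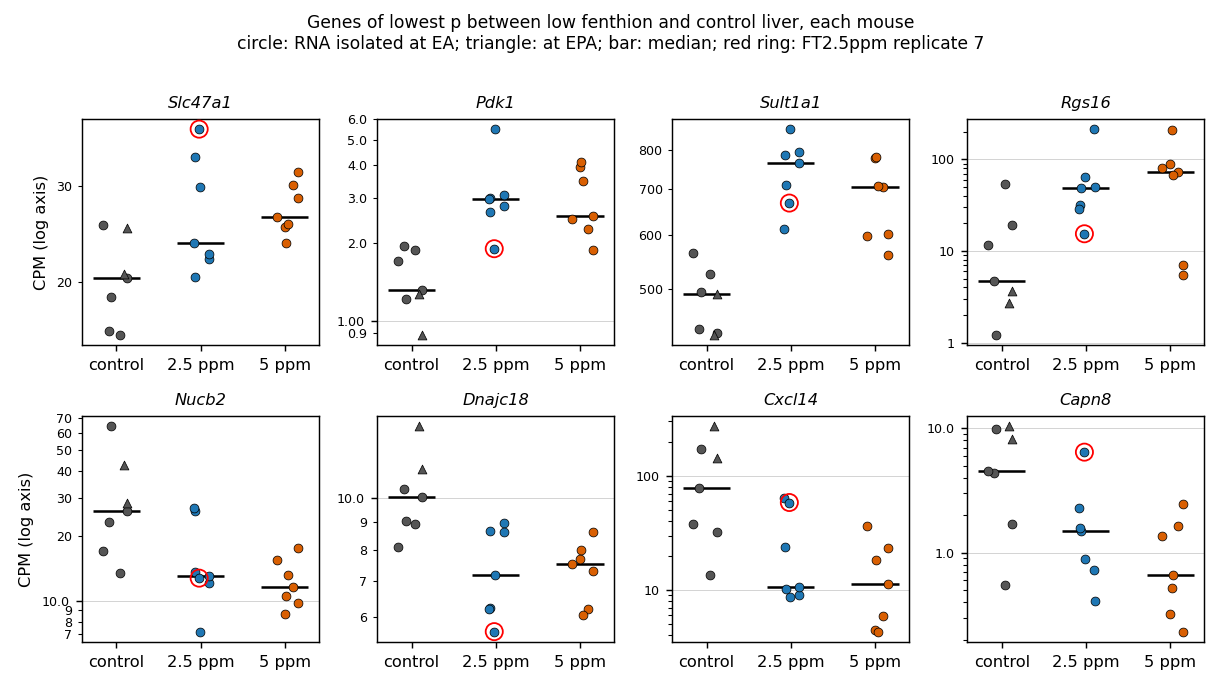
CPM (log axis) of 8 genes near the threshold in each of the 7 control, 7 FT2.5ppm and 7 FT5ppm mice; circles are mice isolated by EA, triangles by EPA, the red ring marks FT2.5ppm replicate 7 and bars are group medians. Sult1a1 and Pdk1 separate most of the low-dose mice from control, while Rgs16 and Cxcl14 span wide ranges in every group. The choice of the 8 genes by their p in these same mice favours such separation.

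On the lower side, Nucb2, the precursor of the peptide nesfatin (ENSMUSG00000030659, chromosome 7, 116103580 to 116139822, plus strand), had the lowest p of all genes. Its level was 13.5 to 64.2 CPM in controls (median 26.1), 7.18 to 26.7 at 2.5 ppm (median 13.1) and 8.65 to 17.6 at 5 ppm (median 11.6). The log2 difference was -1.20 ± 0.26 (adjusted p = 0.214, edgeR), and 9 of 14 low-dose mice were below every control. Cxcl14, a chemokine (chromosome 13, 56436352 to 56444603), had 13.5 to 273 CPM in controls (median 78), 8.6 to 63.4 at 2.5 ppm (median 10.5) and 4.31 to 36.5 at 5 ppm (median 11.4), with 8 of 14 mice below every control. Its log2 difference of -2.78 ± 0.68 was the widest of the 20 genes of lowest p. Here as in the other bulk values, fewer cells of a type and less RNA per cell cannot be told apart.

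The 2 control mice isolated by EPA were high for several of these genes. Their Cxcl14 levels were 143 and 273 CPM, against 13.5 to 172 in the 5 EA controls, and their levels of Capn8, a calpain of the digestive tract, were 8.27 and 10.4 CPM against 0.548 to 9.96. The isolator was a term in the fit. With EA mice alone the log2 difference was -2.18 for Cxcl14, -1.72 for Capn8 and -1.10 for Nucb2, against -2.78, -1.92 and -1.20 with all mice. The part of these EPA controls in the other differences was not tested beyond the values with EA mice alone. Within blocks, the low-minus-control difference in mean log2(CPM + 1) of Cxcl14 was -1.06 in block 1, -3.91 in block 3 and -0.79 in block 4. All 20 of these genes kept their direction in each of the 3 blocks, which the choice by pooled p favours.

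Of the other genes on the lower side, Crybb3, a crystallin, had medians of 6.71 CPM in controls, 2.32 at 2.5 ppm and 2.48 at 5 ppm (log2 difference -1.96 ± 0.49). Ces4a, a carboxylesterase gene (chromosome 8, 105858432 to 105876741), had 2.74 to 4.67 CPM in controls, 0.532 to 3.58 at 2.5 ppm and 0.232 to 3.16 at 5 ppm (-1.34 ± 0.37). Dnajc18, of the HSP40 family, was below every control in 10 of 14 low-dose mice, at a log2 difference of -0.42 ± 0.11. Ppp1r14a, an inhibitor of myosin phosphatase, was below every control in 12 of 14 mice and above every control in 1, replicate 7 of FT2.5ppm, at -0.70 ± 0.20. Cep290, a ciliary protein, differed by -0.59 ± 0.14 and Ifi47, an interferon-inducible GTPase, by -0.56 ± 0.15. No gene on this side passed the edgeR test of the main fit either.

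The targets and scavengers of oxons were examined next. Ache, which encodes acetylcholinesterase, had a median count of 4.5 over the series and was not tested, with at most 0.98 CPM in any of the 21 mice. Bche, the plasma cholinesterase made by the liver, lay at 132 to 237 CPM in controls, 169 to 216 at 2.5 ppm and 178 to 232 at 5 ppm (log2 difference 0.17 ± 0.09), and Pon1, paraoxonase, at 143 to 237, 134 to 231 and 161 to 237 CPM (0.09 ± 0.13, of the opposite sign with EA mice alone, -0.04, and with the 21 mice alone, -0.04). Neither separated the groups. Of 21 tested esterases and hydrolases, 16 had a positive difference (median 0.17), and 3 had an unadjusted p under 0.05 on the higher side and 0 on the lower, against 4.23% and 3.97% of all genes.

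Among the tested genes of the Ces1 to Ces3 families, Ces1d had the lowest p. Its level was 10.8 to 45.2 CPM in controls (median 27.9), 30.9 to 75.7 at 2.5 ppm (median 48.1) and 35 to 61.6 at 5 ppm (median 50.1). The log2 difference was 0.86 ± 0.28 with 8 of 14 low-dose mice above every control, and the adjusted p did not pass. The log2 differences of the other tested members were 0.65 ± 0.34 for Ces1f, 0.37 ± 0.18 for Ces2e, 0.27 ± 0.11 for Ces2a, 0.19 ± 0.10 for Ces2g, 0.11 ± 0.12 for Ces1c, the carboxylesterase that mice secrete into plasma, and -0.15 ± 0.14 for Ces3b. They were 0.47 ± 0.43 for Ces1e (medians of 16.8, 33.1 and 39.7 CPM, with a control mouse at 89.6), 0.32 ± 0.26 for Ces1g, 0.18 ± 0.20 for Ces2b, 0.09 ± 0.22 for Ces3a, 0.49 ± 0.36 for Ces2f and -0.15 ± 0.26 for Ces1b, and the sign turned under some alternative for Ces1b, Ces2b and Ces3a. Ces3a had medians of 130.4 CPM in controls, 139 at 2.5 ppm and 90.9 at 5 ppm. Carboxylesterase genes lie in clusters of near-identical copies, so reads may be split between them. Ces1a, Ces1h and Ces2h were below the count limit and were not tested.

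Cytochrome P450 genes of families 1 to 3, listed with the receptors that control them, lay mostly above control, with 29 of 33 tested members positive (median 0.26), 11 at an unadjusted p under 0.05 on the higher side and 0 on the lower, against 4.23% and 3.97% of all genes. Cyp2c29, a major hepatic member, had 593 to 1579 CPM in controls (median 919), 983 to 2110 at 2.5 ppm (median 1421) and 1193 to 2032 at 5 ppm (median 1648), a log2 difference of 0.63 ± 0.18. Cyp3a11, a target of the pregnane X receptor, had 21.8 to 73.2 CPM in controls, 64 to 104 at 2.5 ppm and 47.7 to 94.4 at 5 ppm (0.53 ± 0.22). Both genes overlapped control, and neither passed. Cyp2c55 (0.91 ± 0.27) and Cyp2c39 (1.05 ± 0.39) had larger differences, Cyp1a2, the target of the aryl hydrocarbon receptor, differed by 0.04 ± 0.16, with a sign that turned in 4 alternatives and in block 1, and Cyp2b10 was below the count limit. Of the 33 genes, 26, 30 and 17 were positive within blocks 1, 3 and 4, against 5933, 5159 and 4116 of all 10415. With EA mice alone 4 rather than 11 had an unadjusted p under 0.05, and without control replicate 5 there were 7. Against fenthion at 10 and 20 ppm, 17 of the 33 were positive (median 0.02). There 1 was higher and 0 lower at an unadjusted p under 0.05, against 2.84% and 1.82% of all genes. Against the other 9 dosed groups 15 were positive (median -0.03), with 1 higher and 7 lower, against 6.55% and 4.27% of all genes. Of 36 phase II conjugation genes, 29 were positive (median 0.16). At an unadjusted p under 0.05, 10 were higher and 1 lower, against 4.23% and 3.97% of all genes. The higher ones included Sult1a1, described above, so its value is part of this count. They also included the glutathione transferase Gsta3 (1868 to 3350 CPM in controls, 2498 to 4096 at 2.5 ppm and 2588 to 3941 at 5 ppm, 0.45 ± 0.13). Ugt2b35, a glucuronosyltransferase, was the lower one (-0.32 ± 0.12). With EA mice alone the phase II counts were 3 and 1, and without control replicate 5 they were 3 and 0. The higher count was 5 without control replicate 3, and 6 without control replicate 4, FT2.5ppm replicate 3 or FT5ppm replicate 4 or 5.

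**Figure D2:**
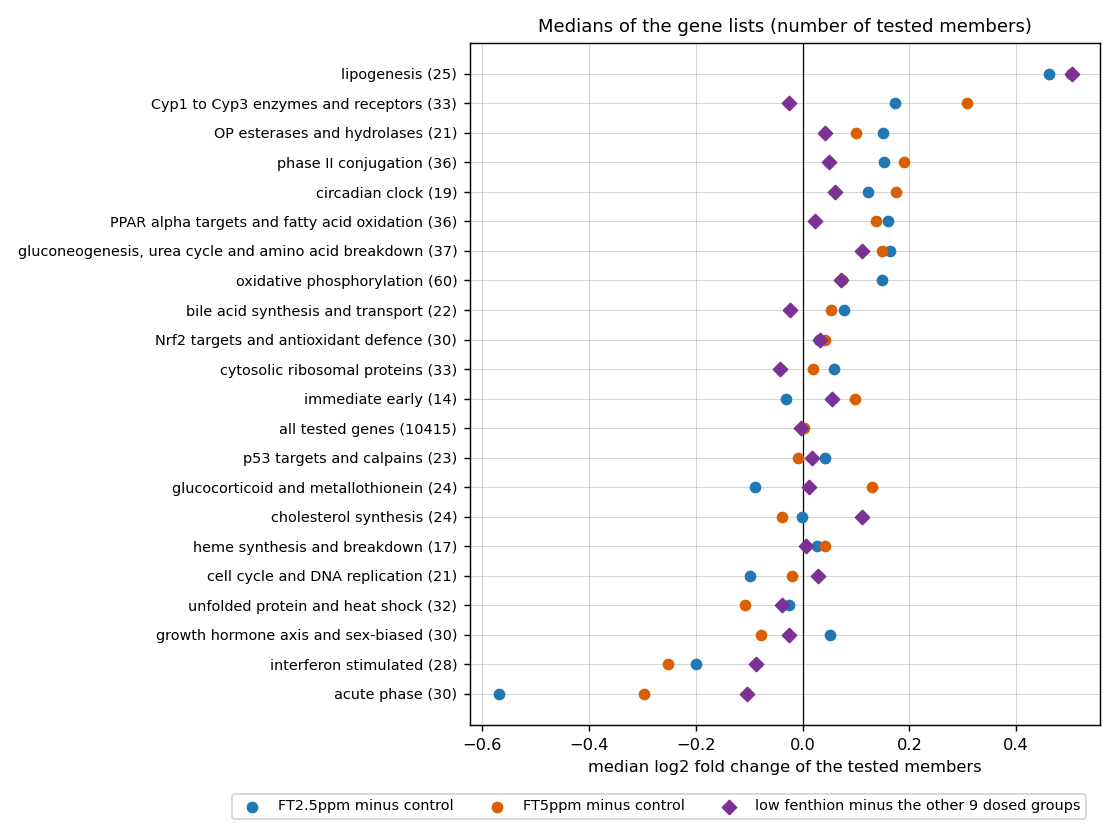
Median log2 difference of the tested members of 21 gene lists and of all 10415 genes, for FT2.5ppm against control, FT5ppm against control and low dose against the other 9 dosed groups. The median over all genes is near 0, lipogenesis has the highest medians, and the acute phase list has the lowest against control.

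Lipogenesis genes, which turn citrate and acetyl-CoA into fatty acids and triglyceride, were the list furthest above control. All 25 members had a positive difference (median 0.55), 15 had an unadjusted p under 0.05 on the higher side, against 4.23% of all genes, and 0 on the lower. None passed after adjustment in this comparison. With EA mice alone the count was 8 (median 0.34). With the 21 mice alone, where the EPA controls carry almost no weight, it was 6 (median 0.42). The members were positive in 24, 22 and 19 of 25 cases in blocks 1, 3 and 4. Of all 10415 genes, 5933, 5159 and 4116 were positive in those blocks. Acly, which cleaves citrate to acetyl-CoA, had 171 to 620 CPM in controls (median 263), 270 to 1101 at 2.5 ppm (median 394) and 261 to 1032 at 5 ppm (median 427). Its log2 difference was 0.87 ± 0.26, and the groups overlapped. Scd1, the stearoyl-CoA desaturase, had 176 to 603 CPM in controls, 322 to 1088 at 2.5 ppm and 320 to 793 at 5 ppm (0.88 ± 0.33). Pnpla3, a lipid droplet protein, had medians of 13.2, 27.1 and 51.7 CPM (1.45 ± 0.46). Me1, the malic enzyme that supplies NADPH, differed by 0.86 ± 0.26, and the elongase Elovl5 by 0.57 ± 0.17.

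Sterol regulatory element binding protein and the carbohydrate response element binding protein are known to drive these genes. Of their own genes on the list, Srebf1 had medians of 1.49 CPM in controls, 1.63 at 2.5 ppm and 1.34 at 5 ppm. Mlxipl had medians of 19.7, 21.8 and 28.5 CPM. The promoters of 3 members that passed against the other dosed groups (below) held a motif of either kind. The 250 bases before the start of each gene are from RefSeq on GRCm38.p6, 5′ to 3′ on the gene's strand, with the motif in capitals. Elovl5 (chr9:77917115-77917364, plus strand) has CACGTG, the E-box core, 161 bases before the start. Gpam (chr19:55127239-55127488, minus strand) has TCACNCCA, a form of the sterol regulatory element, 165 bases before it. Tkt (chr14:30548881-30549130, plus strand) has the second motif on the reverse strand 42 bases before it.
Elovl5: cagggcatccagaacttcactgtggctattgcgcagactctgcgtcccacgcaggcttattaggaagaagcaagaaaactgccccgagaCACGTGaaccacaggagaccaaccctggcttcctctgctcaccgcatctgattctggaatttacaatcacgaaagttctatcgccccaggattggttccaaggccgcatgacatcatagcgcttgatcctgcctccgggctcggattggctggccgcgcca
Gpam: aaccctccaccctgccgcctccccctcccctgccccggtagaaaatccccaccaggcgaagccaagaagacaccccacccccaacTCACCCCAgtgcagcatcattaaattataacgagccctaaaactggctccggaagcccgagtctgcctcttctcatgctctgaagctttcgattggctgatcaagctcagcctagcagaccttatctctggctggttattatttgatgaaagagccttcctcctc
Tkt: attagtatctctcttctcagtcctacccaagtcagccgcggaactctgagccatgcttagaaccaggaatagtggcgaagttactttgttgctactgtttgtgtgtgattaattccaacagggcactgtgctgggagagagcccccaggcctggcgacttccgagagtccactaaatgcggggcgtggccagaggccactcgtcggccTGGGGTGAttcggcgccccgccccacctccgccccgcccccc
Both strands were searched. CACGTG was in 1978 of 32851 promoters in the table (6.02%) and in 3 of the 28 promoters found for 21 of the 25 list genes (10.7%, Elovl5, Mlxipl and Slc25a1). TCACNCCA was in 1207 (3.67%), and in 4 of the 28 (14.3%, Gpam, Mlxipl, Pgd and Tkt). The other members that passed against the other dosed groups, Acly, Scd1 and Fasn among them, had no match or no promoter found. The matches describe the letters only and were not linked to binding.

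Oxidative phosphorylation subunits were also mostly above control. Of 60 tested, 54 were positive with a small median of 0.11, and 12 had an unadjusted p under 0.05 on the higher side and 0 on the lower, against 4.23% and 3.97% of all genes. Ndufv2 of complex I differed by 0.28 ± 0.08, and the ATP synthase subunits Atp5mc3 and Atp5pb by 0.22 ± 0.07 and 0.19 ± 0.06. The count was 4 without control replicate 5 and 28 without covariates. By dose it was 18 at 2.5 ppm and 7 at 5 ppm, and in the direct comparison of the doses 8 were lower at 5 ppm and 0 higher at an unadjusted p under 0.05, against 5.22% of all genes higher and 6.0% lower.

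Acute phase genes, which the liver transcribes in inflammation, lay below control, with 27 of 30 negative (median -0.48), 8 at an unadjusted p under 0.05 on the lower side and 1 on the higher, against 3.97% and 4.23% of all genes. Itih3, an inter-alpha-trypsin inhibitor heavy chain, had 1972 to 4661 CPM in controls (median 2593), 1549 to 2555 at 2.5 ppm (median 1691) and 1357 to 4678 at 5 ppm (median 2132), a log2 difference of -0.53 ± 0.21. The complement gene Cfb differed by -0.34 ± 0.14, and the hepcidin gene Hamp2, the member on the higher side, by 1.5 ± 0.52. The count on the lower side rested on single mice: it was 0 with EA mice alone (median -0.26), 2 with the 21 mice alone, 4 without control replicate 3, 5 without control replicate 5, 17 without control replicate 1, 15 without control replicate 7 and 20 without FT5ppm replicate 3, the mouse with the highest Itih3 and Cfb of its group. In block 1, 20 of the 30 members were negative (median -0.15), in block 3 28 (median -0.71) and in block 4 16 (median -0.05). Of all 10415 genes, 4482, 5256 and 6299 were negative in those blocks. By dose, 14 members were lower at an unadjusted p under 0.05 at 2.5 ppm (median -0.57) and 1 at 5 ppm (median -0.30), against 5.09% and 3.98% of all genes. Of 28 interferon-stimulated genes 26 were negative (median -0.23) with 4 lower and 0 higher at an unadjusted p under 0.05, against 3.97% and 4.23% of all genes, such as Oas1a (-0.73 ± 0.23) and Oasl2 (-0.40 ± 0.16). The lower count was 9 without FT2.5ppm replicate 7, 7 without control replicate 1 or 7, 9 with the 21 mice alone, and 10 with control and fenthion mice alone or without the parathion 80 ppm mice. It was 3 with limma, without control replicate 2 or 4, or without the replicate block. In block 1, 22 of the 28 were negative (median -0.27), in block 3 23 (median -0.27) and in block 4 18 (median -0.05). Kupffer cell and macrophage markers, 9 of 9 tested, were also negative (median -0.21), with summed levels of 179 to 366 CPM in controls, 195 to 310 at 2.5 ppm and 167 to 326 at 5 ppm, and none of their 11 members was at 0 in any group. Their part in the acute phase and interferon values was not tested.

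The second question was whether the 2 doses gave the same picture. Each dose was set against the same 7 controls, so the values at 2.5 and 5 ppm are not independent of each other and are given side by side. At 2.5 ppm 1 gene passed (0.0096%) and 1105 (10.6%) had an unadjusted p under 0.05, 5.52% of all genes higher and 5.09% lower. At 5 ppm 0 passed (0.0%, lowest adjusted p 0.300 by edgeR) and 786 (7.55%) had an unadjusted p under 0.05, 3.57% higher and 3.98% lower. Against these shares, lipogenesis had 13 of 25 members higher and 0 lower at 2.5 ppm (median 0.46), and 16 higher and 0 lower at 5 ppm (median 0.50). The P450 list had 7 of 33 and 8 of 33 higher and 0 lower at either dose. For Nucb2 the log2 difference from control was -1.01 ± 0.31 at 2.5 ppm and -1.38 ± 0.31 at 5 ppm. For Cxcl14 the values were -2.45 ± 0.81 and -3.11 ± 0.83, and for Rgs16 2.29 ± 0.69 and 2.61 ± 0.70. Sult1a1 gave 0.57 ± 0.16 and 0.45 ± 0.16. The 95% interval of the 5 minus 2.5 ppm difference held 0 in each of these genes, and ran from -0.97 to 0.24 for Nucb2, -2.14 to 0.83 for Cxcl14, -0.95 to 1.58 for Rgs16 and -0.44 to 0.19 for Sult1a1. The 95% interval of the difference from control left out 0 for 19 of the 20 genes at 2.5 ppm and 18 of 20 at 5 ppm, which the choice of genes by their pooled p favours.

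**Figure D3:**
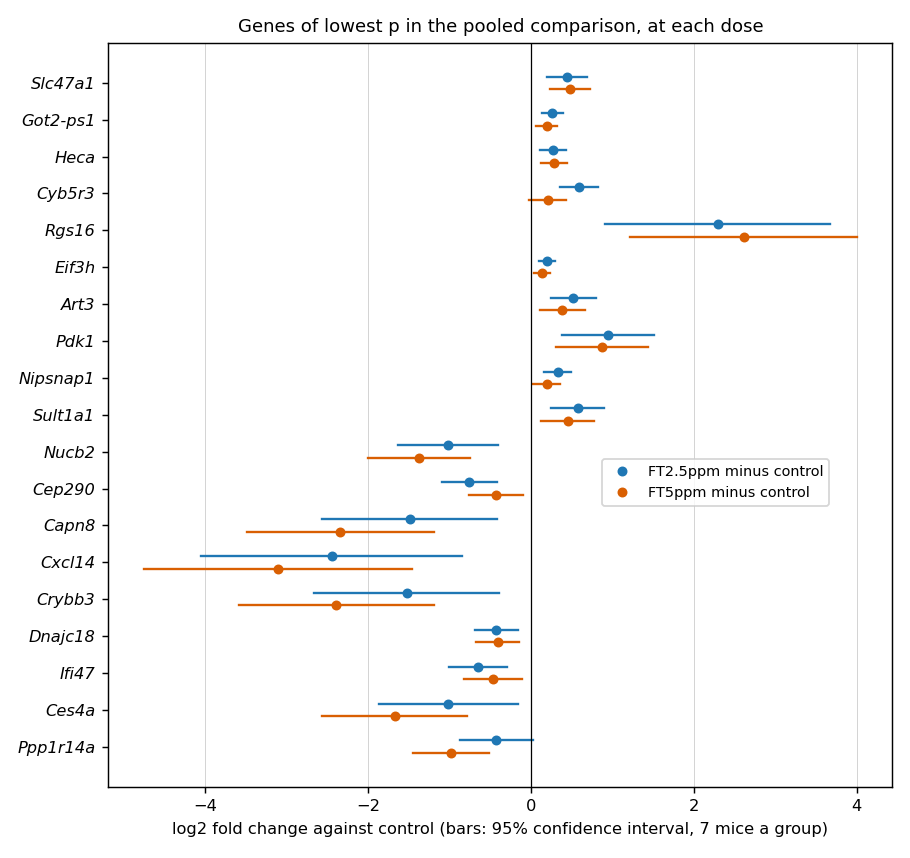
Log2 difference from control with its 95% interval for 19 of the 20 genes of lowest p in the pooled comparison, at 2.5 ppm and at 5 ppm (7 mice each against the same 7 controls). The intervals of the 2 doses overlap for most genes, and that of Cyb5r3 lies further from 0 at 2.5 ppm.

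Cyb5r3 stood out by dose. It had 252 to 502 CPM in controls (median 325), 422 to 804 at 2.5 ppm (median 489) and 331 to 476 at 5 ppm (median 390). It was higher at 2.5 ppm, by 0.59 ± 0.12 (adjusted p = 0.0231, edgeR), and differed by 0.20 ± 0.11 at 5 ppm, yet the direct difference between the doses, -0.39 ± 0.11, had an adjusted p of 0.113 by edgeR. The highest level was that of FT2.5ppm replicate 7, and without that mouse the value was 0.48 ± 0.11 and the adjusted p 0.115 by edgeR. Of the 20 genes, 3 had an unadjusted p under 0.05 between the doses, Cyb5r3 and Ppp1r14a among them, and none passed after adjustment.

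Tested directly against each other, with no control mouse in the contrast, the doses differed for 13 genes (0.125%), of which 10 were higher (0.096%) and 3 lower (0.0288%) at 5 ppm. In all, 1169 genes (11.2%) had an unadjusted p under 0.05, and 2 of the 13 differed by 2-fold or more (0.0192%), 5730522E02Rik and Nsun4. Glrx2, a mitochondrial glutaredoxin (chromosome 1, 143592076 to 143626588), had 1.57 to 3.26 CPM at 2.5 ppm and 4.10 to 4.73 at 5 ppm, with no overlap, a log2 difference of 0.82 ± 0.17 (adjusted p = 0.0147, edgeR). Its controls, at 2.47 to 5.56 CPM, lay either within the 2.5 ppm range or within or above the 5 ppm range. Against those shared controls its log2 difference was -0.56 ± 0.17 at 2.5 ppm and 0.26 ± 0.16 at 5 ppm, and neither passed. Eml5, a microtubule-associated protein, had 3.81 to 5.50 and 5.89 to 8.87 CPM (0.66 ± 0.13), Srek1, a splicing regulator, 31.9 to 39.6 and 42.1 to 49.1 (0.37 ± 0.09), and 5730522E02Rik 0 to 0.611 and 0.707 to 1.89 (1.78 ± 0.36), again with no overlap. Nsun4, a methyltransferase of mitochondrial ribosomal RNA, was higher by 1.5 ± 0.33, Clasrp, another splicing-related gene, by 0.56 ± 0.13 and Akap8l, an A-kinase anchoring protein, by 0.52 ± 0.11, and these overlapped. The lower genes included Gpn3, a GPN-loop GTPase (4.08 to 6.62 and 2.63 to 3.36 CPM, -0.67 ± 0.15, no overlap, with 0.19 ± 0.15 at 2.5 ppm and -0.48 ± 0.15 at 5 ppm against the shared controls) and the processed pseudogene Gm6997 (-0.65 ± 0.13), whose estimated counts were not whole in any mouse. Thoc2l (0.54 ± 0.12), 1700109H08Rik (0.76 ± 0.18) and Zup1, a ubiquitin peptidase (0.42 ± 0.10), were also higher, and were named after their values were seen.

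Of the 13 genes, 7 had no overlap between the 7 and 7 mice, 6 higher and 1 lower at 5 ppm, against 24 of all genes (0.23%), 0.163% higher and 0.0672% lower. The choice of the 13 by a test of these same mice favours this. The calls rested on FT2.5ppm replicate 7: without this mouse 0 of the 13 passed, with unchanged directions and adjusted p values from 0.128 to 0.253 by edgeR in the 12 named, and the count also fell to 4 or 5 without FT5ppm replicate 1, 2, 3, 5 or 6. It was 51, 39 and 53 without FT2.5ppm replicates 2, 4 and 6, and 25 without control replicate 1, 5 or 7. The isolator term passed for 10 of the 13 genes, against 38.5% of all genes, and for 9 of these the EPA minus EA difference had the sign of the 5 minus 2.5 ppm difference, although both dose groups were isolated by EA. The part of RNA handling in these differences was not tested.

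**Figure D4:**
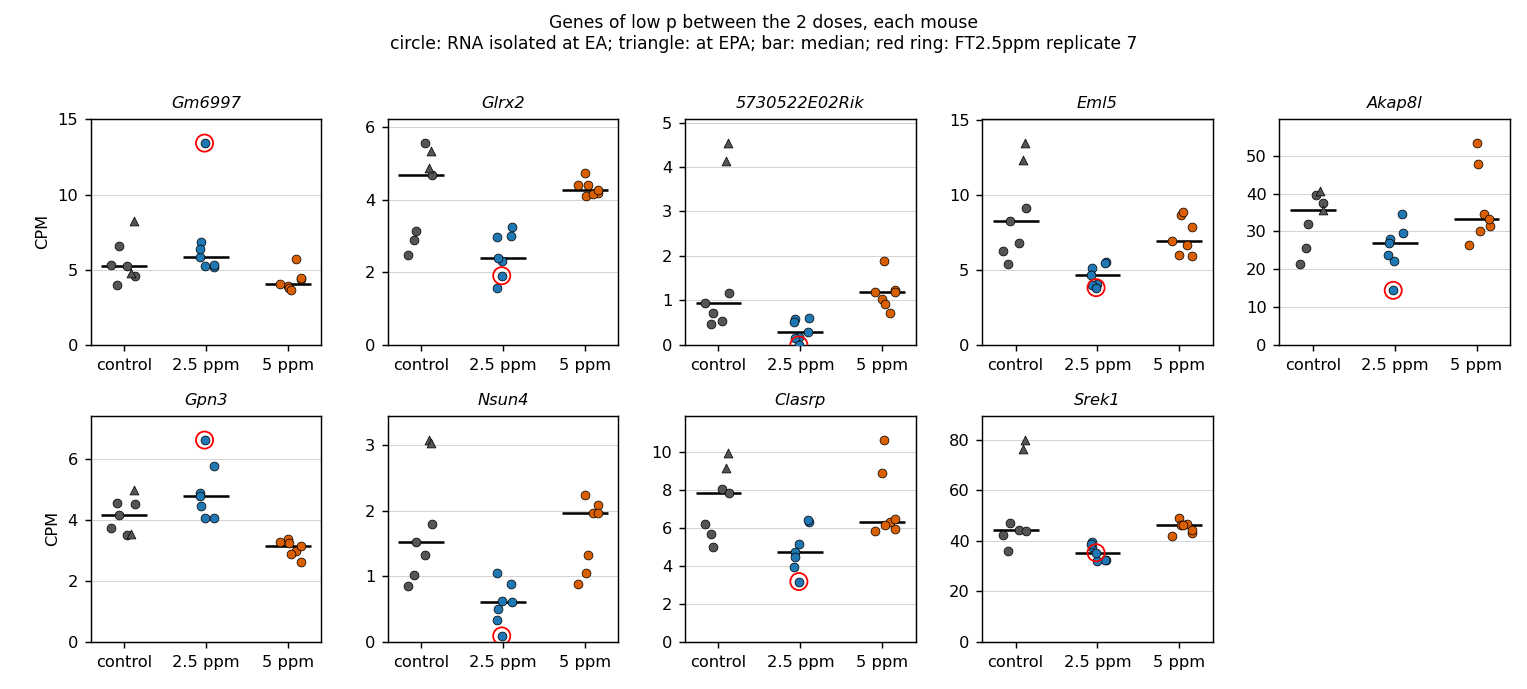
CPM (linear axis) of 9 genes that passed between FT5ppm and FT2.5ppm, in each control, FT2.5ppm and FT5ppm mouse; circles are EA mice, triangles EPA mice, the red ring is FT2.5ppm replicate 7 and bars are medians. The dose groups separate for Glrx2, Eml5, Srek1, 5730522E02Rik and Gpn3, and the control mice overlap at least one of them.

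Compared with the 14 mice on 10 and 20 ppm fenthion, the 14 low-dose mice differed for 1 gene (0.0096%), and 486 genes (4.67%) had an unadjusted p under 0.05. This gene was Syt15, a synaptotagmin (ENSMUSG00000041479, chromosome 14, 33941552 to 33952381), named after its values were seen. It lay between 0.249 and 0.826 CPM at low dose (median 0.609), between 0.839 and 1.47 at 10 ppm and between 0.849 and 1.56 at 20 ppm, so all 14 low-dose mice were below all 14 higher-dose mice. The choice of Syt15 by its call in this comparison favours such a separation, and its share over all genes was not counted. The log2 difference was -0.96 ± 0.18 (adjusted p = 0.00692, edgeR), and the call held under every alternative run. Controls lay at 0.391 to 1.05 CPM and overlapped both. The gene is near the detection limit, with a median count of 10 over all mice. Of the 25 lipogenesis genes 24 were positive in this comparison (median 0.23), 8 of them at an unadjusted p under 0.05 against 2.84% of all genes, 0 were lower against 1.82%, and 0 passed.

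Against the 63 mice of the other 9 dosed groups, 40 genes differed (0.384%), 37 higher (0.355%) and 3 lower (0.0288%) in low-dose mice. This contrast holds no control mouse. Lipogenesis supplied 12 of the 37 higher genes, all 25 of its members were positive (median 0.50), and 22 had an unadjusted p under 0.05 on the higher side and 0 on the lower, against 6.55% and 4.27% of all genes. Acly had 261 to 1101 CPM in low-dose mice (median 412) and 101 to 920 in the others (median 286). It was higher by 0.81 ± 0.15 on the log2 scale (adjusted p = 0.00257, edgeR). Scd1 had 320 to 1088 CPM (median 620) and 19 to 985 (median 307), and was higher by 0.97 ± 0.19 (adjusted p = 0.00411, edgeR). In both genes the ranges overlapped. The acyltransferase Gpam (0.58 ± 0.11), Me1 (0.80 ± 0.15), Pnpla3 (1.28 ± 0.25), the acetyl-CoA synthetase Acss2 (0.70 ± 0.14), the elongases Elovl5 (0.50 ± 0.10) and Elovl6 (0.77 ± 0.16), the acetyl-CoA carboxylase Acacb (0.67 ± 0.15), the fatty acid synthase Fasn (0.79 ± 0.19), Thrsp (0.92 ± 0.22) and the transketolase Tkt (0.22 ± 0.05) also passed.

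The number of lipogenesis genes that passed depended on the parathion 80 ppm group. The mean log2(CPM + 1) of the 25 genes had its lowest group median there (5.07, range 4.84 to 5.61), and its highest at FT5ppm (6.29, range 5.71 to 6.71), followed by FT10ppm (6.21), FT2.5ppm (5.99, range 5.74 to 6.78) and MT50ppm (5.98), with controls at 5.70 (range 5.44 to 6.22). Neighbouring groups in this order overlapped. Without the parathion 80 ppm mice, an alternative added after the data were seen, 4 rather than 12 members passed while the median was 0.48, with Acly at 0.69 (adjusted p = 0.0311, edgeR), Me1 at 0.69 and Gpam at 0.51 among them, while Scd1 at 0.71 and Pnpla3 at 0.94 did not. The count was 6 without FT2.5ppm replicate 3 and 7 without FT5ppm replicate 7. Both low doses held the highest 2 group medians for 5 of the 25 members.

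**Figure D5:**
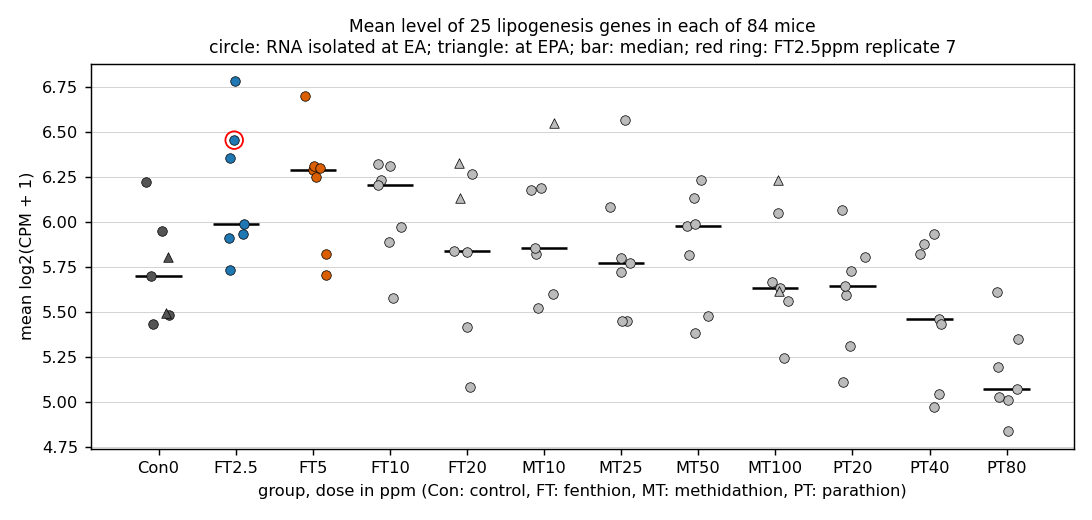
Mean log2(CPM + 1) of the 25 lipogenesis genes in each of the 84 mice, by group; circles are EA mice, triangles EPA mice, the red ring is FT2.5ppm replicate 7 and bars are group medians. Group medians run from 5.07 at PT80ppm to 6.29 at FT5ppm, the controls sit at 5.70, and the ranges of most groups overlap.

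At 2-fold or more 2 genes passed (0.0192%), Pnpla3 and Chrna4. Of the other genes that passed against the 9 dosed groups, the following were named after their values were seen. Cs, citrate synthase, was higher in low-dose mice by 0.21 ± 0.05, Haao, a tryptophan-breakdown dioxygenase, by 0.20 ± 0.04, Fbp1, a gluconeogenic phosphatase, by 0.26 ± 0.06, and the genes Cyb5r3 and Nipsnap1, both met above, by 0.31 ± 0.06 and 0.21 ± 0.04. Pmf1, a kinetochore gene, was higher by 0.40 ± 0.07 and the kallikrein gene Klk1b4 by 0.90 ± 0.18. Chrna4, a subunit of the nicotinic acetylcholine receptor, had 1.19 to 12.2 CPM in low-dose mice, 1.17 to 3.68 in controls and 0 to 1.5 in parathion 80 ppm mice. It was higher by 1.08 ± 0.26, and by 0.71 without the parathion 80 ppm mice, where it no longer passed (adjusted p = 0.204, edgeR), as was also so without FT5ppm replicate 7 (0.95, adjusted p = 0.107, edgeR). The 3 lower genes were Syt15 (-0.68 ± 0.15), Clec9a, a lectin of dendritic cells (-0.58 ± 0.14), and 1700109H08Rik (-0.41 ± 0.10).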

How the data were processed

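Liver RNA of 84 mice was measured by TempO-Seq. Trimming, alignment to mm39 with STAR and counting against Ensembl genes were done by the authors in Partek Flow, and they deposited estimated counts per gene, of which 18.7% were not whole. They were rounded to whole numbers for the test. The authors' second table, of adjusted log2 values, was not used. Gene positions are from GENCODE on GRCm39 (mm39), and promoters from RefSeq on GRCm38.p6.

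CPM is the count over the mouse's total count. Genes with a median count above 8 over 84 mice (10415 of 17695) were tested with edgeR 4.0.16 (TMM, robust quasi-likelihood F test, two-sided) in R 4.3.3, with all 12 groups, block and isolator as terms and Benjamini-Hochberg adjustment over all tested genes. The pooled value is the mean of the FT2.5ppm and FT5ppm terms minus control. SE is the absolute log2 difference over the square root of F. A gene was called at an adjusted p under 0.05. The script was tested on simulated data. DESeq2 1.42.0 and limma 3.58.1 were alternatives. With these total counts, low values are limited by counting: 3 counts are about the smallest measured number.

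The named genes are the 10 of lowest p in each direction in the pooled comparison with a mean of at least 1 CPM, the 10 of lowest p between the doses, up to 3 members of lowest p per gene list, and the cholinesterase, carboxylesterase, paraoxonase and P450 genes fixed by name. The members and lists were chosen with earlier results of these data known, so no list is independent support. Replicate numbers are only names in the order of the samples. Of the genes these rules name, 2 are not reported here. Left out were set tests and correlations between comparisons that share the controls.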

Additional observations from a re-analysis of the deposited data

Results flagged for a closer look

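A mouse was marked where its gap to the nearest mouse of its own group of 7 exceeded Dixon's 95% critical value. Over 88 genes named in the text and 3 groups, 35 of 264 groups were marked. Chance marks about 1 in 20 for independent, normally distributed values. CPM was not transformed and the genes were chosen from these same mice, so that rate does not apply here. FT2.5ppm replicate 7, the mouse least correlated with its group, gave 13 of them. Its CPM was the highest of its group for Cyb5r3 (804), Nipsnap1 (273), Capn8 (6.44), Ppp1r14a (9.53), Ces1f (281), Ces2b (36.4), Ces3a (346), Atp5mc3 (252), Oas1a (10.9), Gm6997 (13.4) and Haao (1704), and the lowest for Ces1c (3046) and 1700109H08Rik (4.08).

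Control replicate 7 was highest for Got2-ps1 (525 CPM), the carboxylesterase Ces2e (590.2), Me1 (122), Gpam (97.3) and Pmf1 (59.8), and control replicate 1 for Rgs16 (53.6), Ces1e (89.6) and Cyp2c39 (18.9). FT5ppm replicate 3 was lowest for the ATP synthase subunits Atp5mc3 (115 CPM) and Atp5pb (855) and highest for the acute phase genes Itih3 (4678) and Cfb (2629). FT2.5ppm replicate 3 was highest for Pdk1 (5.50 CPM), Elovl6 (391) and Acacb (19.3), and FT5ppm replicate 7 for Pnpla3 (117), Thrsp (40.0) and Cs (436). Rgs16 was set apart in FT2.5ppm replicate 2 (215 CPM) and FT5ppm replicate 2 (210.5), and FT5ppm replicate 4 was highest for Gm6997 (5.73) and Ces1e (92.7).

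The doses differed, by the direct edgeR test of FT5ppm against FT2.5ppm, for 13 genes, 12 of which are named here. The log2 difference was 0.82 for Glrx2, 1.78 for 5730522E02Rik, 0.66 for Eml5, 0.52 for Akap8l, 1.5 for Nsun4, 0.56 for Clasrp, 0.37 for Srek1, 0.54 for Thoc2l, 0.76 for 1700109H08Rik, 0.42 for Zup1, -0.65 for Gm6997 and -0.67 for Gpn3. None of the 13 passed without FT2.5ppm replicate 7.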

How the results depend on the processing

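Counts of called genes moved with the processing. The pooled comparison gave 0 in edgeR, 3 with DESeq2, 3 with the 21 mice alone (Sult1a1 and Ddah1 higher, Plk3 lower) and 0 to 3 when single mice were left out, the 3 without control replicate 7. The share of higher genes among those with an unadjusted p under 0.05 was 51.6%, against 74.5% with limma and 40.4% with the 21 mice alone. FT2.5ppm against control gave 1, against 12 with DESeq2, 4 with the 21 mice alone, 22 without covariates, 14 without parathion 80 ppm mice, 0 with control and fenthion mice alone or without the filter on low counts, and 0 to 5 without single mice. FT5ppm against control gave 0, with 4 in DESeq2, 2 without the filter and 0 to 0 without single mice. The dose difference gave 13, against 42 with DESeq2 or without parathion 80 ppm mice, 8 with EA mice alone, 0 with control and fenthion mice alone or without covariates, 1 with the 21 mice alone, 4 with limma, 5 without the filter and 0 to 53 without single mice. Low dose against the other dosed groups gave 40, against 61 with DESeq2, 5 with limma, 20 without covariates and 14 to 85 without single mice, the 14 without FT2.5ppm replicate 3. Other mice moving that count by over 1.5 times were FT2.5ppm replicates 7 (20), 2 (70), 5 (62) and 6 (85), FT5ppm replicates 1 (23), 4 (22) and 7 (23) and control replicate 3 (67). Lipogenesis against control gave 15, against 8 with EA mice alone, 6 with the 21 mice alone and 11 to 19 without single mice. Its count against the other dosed groups was 12, and 3 with limma, 4 without parathion 80 ppm mice and 6 to 14 without single mice. The causes were not tested.

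Without the replicate block of the labels, with the isolator kept, the counts were 0 for the pooled comparison, 0 for FT2.5ppm, 0 for FT5ppm, 10 between the doses, 1 against higher fenthion doses and 23 against the other dosed groups. No paired analysis was possible because replicate numbers follow the order of the samples.

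Of 4603 values of single genes under alternatives, 4331 kept direction and side of the threshold, 234 lost the call and 23 gained it. Most of the values belonged to differences not called in the main fit, where staying uncalled with the same sign counted as kept. Only differences called in the main fit could lose the call. The 15 that turned sign were Pon1 with EA mice alone (-0.0370) and with the 21 mice alone (-0.0431), and Cyp1a2 with EA mice alone (-0.00181), with control and fenthion mice alone (-0.0208), and without FT2.5ppm replicate 7 (-0.00294) or FT5ppm replicate 4 (-0.00464), where the range without single mice reached 0.123. They were also Ces1b with limma (0.0126), without covariates (0.0413) and without control replicate 1 (0.0211) or 4 (0.000591), with a lowest value without single mice of -0.356, Ces2b with EA mice alone (-0.00379), with the 21 mice alone (-0.0136) and without covariates (-0.131), and Ces3a without control replicate 1 (-0.0922) or FT2.5ppm replicate 7 (-0.0431), with a highest value without single mice of 0.230. Leaving out parathion 80 ppm mice, and single mice and subsets for the comparisons beyond the pooled one, were chosen after seeing the data. Depth limits genes near 1 CPM, such as Syt15 and Nsun4.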

Other observations

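Genes of gluconeogenesis, the urea cycle and amino acid breakdown lay above control in 33 of 37 cases (median 0.13), with 5 higher and 0 lower at an unadjusted p under 0.05, against 4.23% and 3.97% of all genes. Slc37a4, the glucose-6-phosphate transporter, differed by 0.54 ± 0.19 on the log2 scale, G6pc1, the glucose-6-phosphatase, by 0.83 ± 0.36 and Bckdha, of branched-chain amino acid breakdown, by 0.26 ± 0.09. PPARα targets and fatty acid oxidation genes were positive in 31 of 36 cases (median 0.15), with 3 higher. Among 32 unfolded protein and heat shock genes 5 were lower and 0 higher, such as the protein disulfide isomerase Pdia6 (-0.34 ± 0.11), and by dose the lower count was 0 at 2.5 ppm and 6 at 5 ppm. Of 23 p53 targets and calpains, 3 were lower and 0 higher, with the kinase Plk3 at -1.05 ± 0.36 and Capn5 at -0.41 ± 0.15. None of these genes passed after adjustment in edgeR's quasi-likelihood test. In the remaining lists 1 to 3 members were higher and 0 to 3 lower at an unadjusted p under 0.05.

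Without the filter on low counts, Plin1 and Cfd passed in FT5ppm against control. Both encode proteins of fat cells and belong to the adipose and muscle marker list. FT5ppm replicate 1 had 6.01 CPM of Plin1 and 7.37 CPM of Cfd, while every other FT5ppm mouse had at most 0.21 CPM of Plin1 and 0 of Cfd. Without this mouse the lipogenesis count against control was 15, as with it.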
